A study of Rattus norvegicus with 156 samples.

Results

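Atf3, Jun, Gadd45a, Csrp3, Arg1 and Gap43 are 6 genes linked to axon regeneration, and they were followed here in the nervous system of rats after spinal nerve injury. They were chosen by gene symbol: every probe set of the Affymetrix rat U34 arrays A, B and C whose annotation named 1 of these symbols alone was taken. This gave 12 of 26379 probe sets and 6 of 10969 genes. Jun and Gadd45a had 4 probe sets each and the other genes had 1 each, and all 12 lay on array A. Where a gene had several, the probe set with the highest mean signal stood for it and was numbered 1.

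The rats fell into 5 treatments. In SNL rats the L5 and L6 spinal nerves were ligated, and vehicle was given. SNL+GPN rats had the same ligation and were treated with gabapentin (GPN), a drug first made for epilepsy and now given for nerve pain. Naive rats had no surgery and received vehicle, Naive+GPN rats had no surgery and received gabapentin, and Sham rats had the nerves exposed but not tied and received vehicle. The dose was 100 mg/kg, given intraperitoneally once a day for 7 days, and tissue was taken 19 to 21 days after surgery. Ligated rats entered the study only if the paw of the injured side had become more sensitive when tested on days 12 to 14, so rats without that sign are not represented.

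RNA was measured in dorsal root ganglia (DRG) of levels L4, L5 and L6, in mid-thigh sciatic nerve and in spinal cord, each ipsilateral and contralateral to the ligation, and in whole brain. DRG hold the cell bodies of the sensory neurons. Axons of the L5 and L6 neurons run through the tied nerves, and those of L4 run through a nerve that was not tied. Each of the 52 samples was 1 RNA pool of 4 to 6 rats of 1 treatment and 1 tissue. The 2 ligated pools (SNL and SNL+GPN) were compared with the 3 unligated pools (Naive, Naive+GPN and Sham) of the same tissue, so the p values measure only the spread between these pools. The naive contralateral L6 DRG, the gabapentin-treated naive contralateral L5 DRG and the SNL contralateral sciatic nerve were not analysed here.

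When the axon of a peripheral sensory neuron is cut or tied, its cell body switches on a growth programme. ATF3 and JUN are transcription factors of the bZIP family that bind DNA as pairs, with each other and with related proteins, and both are classic marks of an injured neuron. GADD45A is a small stress protein known for growth arrest and DNA repair. CSRP3, the muscle LIM protein, is an actin-associated protein first known from striated muscle. ARG1 turns arginine into ornithine, the starting point of polyamines, which can promote neurite growth. GAP43 is a membrane protein of the growth cone.

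The values are signals on a linear scale, normalized between the pools of 1 tissue. Array medians before normalization ranged from 13 to 62.2 on array A. Precision is limited by how few pools there were. Summed over 14 neuron markers and expressed as multiples of the array median, the signal was 912 to 991 in unligated ipsilateral L5 DRG and 48.8 to 51.3 in unligated ipsilateral sciatic nerve, where 10 markers of Schwann cells and satellite glia summed to 947 to 1090. 8 markers of central glia summed to 171 to 199 in unligated ipsilateral spinal cord, against 18 to 23.8 in unligated ipsilateral L5 DRG. Neuron markers were thus higher in L5 DRG than in nerve, and central glia markers were higher in cord than in L5 DRG. The Schwann cell and satellite glia markers were not particular to nerve. They summed to 473 to 599 in unligated ipsilateral L5 DRG and to 444 to 619 in unligated ipsilateral spinal cord. In unligated brain the central glia markers summed to 94.7 to 112. None of these markers was at 0 in any pool. Several pools stood apart. The sum of 28 skeletal muscle markers was 208 in the SNL pool of L4 DRG against 25.6 to 49.9 in the unligated pools, and 263 in the Naive pool of L6 DRG against 28.2 to 44.9 in the other pools of that tissue. In ipsilateral sciatic nerve it was 56.5 and 446 in ligated pools against 575 to 1180 in unligated pools. The ratio of 3′ to 5′ GAPDH signal, a mark of RNA integrity, was 1.92 and 1.61 in the ligated pools of ipsilateral sciatic nerve, against 7.38 in Naive, 1.60 in Naive+GPN and 3.80 in Sham. It was 2.07 to 3.20 in contralateral sciatic nerve. Among DRG pools it was 3.16 in the Sham pool of contralateral L4, against 0.899 to 1.49 in the others.

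Without ligation, the genes differed in where they were found. Gap43 was high in brain and DRG and low in sciatic nerve, and Atf3 had its highest level in sciatic nerve. Levels across tissues are given as multiples of the median signal of each array, over all unligated pools of both sides, and were not tested. Arrays of different tissues were not made to 1 scale, so each multiple also depends on the median of its array. The unligated medians on array A were 16 to 25.1 in ipsilateral sciatic nerve and 32.2 to 38.3 in ipsilateral L5 DRG. In ipsilateral L6 DRG they were 20.5 to 52.9. Atf3 had a median of 4.79 in sciatic nerve (4.17 to 8.22, n = 6), 1.61 in DRG (1.24 to 2.91, n = 16), 1.12 in spinal cord (0.992 to 1.5, n = 6) and 1.01 in brain (0.896 to 1.38, n = 3). In these multiples every sciatic nerve pool lay above every pool of the other tissues, whereas DRG, spinal cord and brain overlapped. Jun had a median of 10.6 in sciatic nerve (6.22 to 14.0), 5.56 in DRG (2.56 to 7.60), 2.80 in spinal cord (1.82 to 4.79) and 2.85 in brain (2.49 to 2.89). Its nerve and DRG ranges overlapped, and so did its DRG and spinal cord ranges.

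Gadd45a had medians of 4.00 in sciatic nerve, 3.90 in DRG and 2.85 in spinal cord, with overlapping ranges. In brain its median was 1.93 (1.73 to 1.96), below every other tissue, as was so for probe set 2 (0.684 to 0.823). Probe set 3 in brain (0.486 to 0.878) overlapped DRG (0.636 to 1.8). Probe set 4 in brain (0.218 to 0.434) overlapped DRG (0.0938 to 1.31) and spinal cord (0.319 to 1.31). Nerve and DRG medians were 3.01 and 1.93 on probe set 2, 2.04 and 1.06 on probe set 3, and 0.86 and 0.666 on probe set 4. Gap43 had a median of 21.7 in brain (18.9 to 25.6), 17.9 in DRG (13.5 to 30.2), 9.02 in spinal cord (7.04 to 9.73) and 1.91 in sciatic nerve (1.21 to 3.64). Brain and DRG overlapped, spinal cord lay below both, and sciatic nerve lay below all. The protein is carried along axons, while its RNA is made mainly in cell bodies. Csrp3 and Arg1 were near or below the array median throughout. The highest unligated value was 2.05 for Csrp3 and 1.43 for Arg1, both in contralateral sciatic nerve. The skeletal muscle sum was 393 to 2070 in the unligated pools of that tissue, and the part of muscle in these values was not tested. Arg1 was 0.319 to 0.577 in L6 DRG, which overlapped brain (0.277 to 0.5), and 0.103 to 0.241 in L4 and L5 DRG, where signals were so low that their order means little. Neighbouring tissues overlapped for Csrp3.

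**Figure D1:**
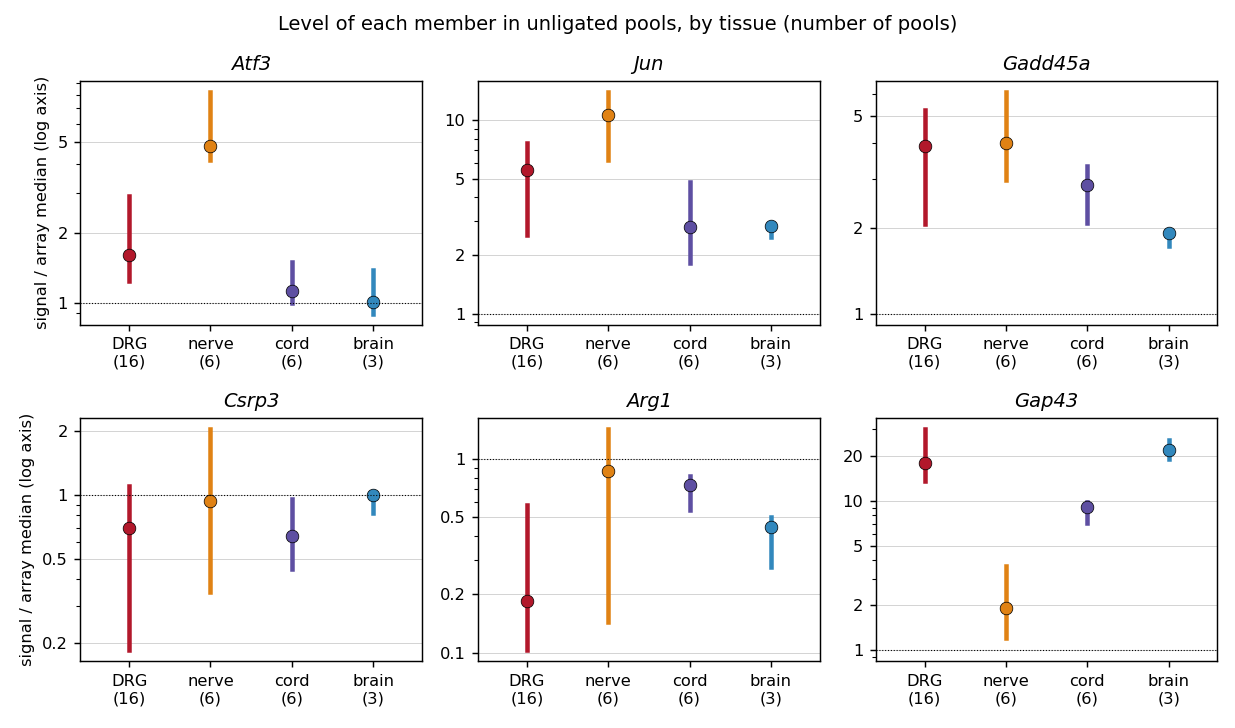
Level of each gene in unligated pools by tissue, as signal divided by the median of its array (log axis, 1 panel and 1 scale per gene). Points are medians, lines run from the lowest to the highest pool, and numbers under the tissues count pools. Atf3 in sciatic nerve (4.17 to 8.22) lies above its other tissues, and Gap43 in sciatic nerve (1.21 to 3.64) lies below its other tissues.

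In ipsilateral L5 DRG all 6 genes were higher with ligation, by 2.29-fold to 6.85-fold. Of all 16746 probe sets tested there, 6.75% were called higher at an adjusted p below 0.05 (limma, Benjamini-Hochberg). All 12 probe sets of the 6 genes were called higher, and none overlapped between groups, as was so for 23.5% of all probe sets in the upward direction. Arg1 is no support for that count, because it passed the filter on low signals only in the 2 ligated pools and in 0 unligated pools, and so it had to differ. In ipsilateral L6 DRG 11 of the 12 probe sets were called higher, against 4.37% of 16901 tested, and the same 11 were without overlap, against 21.6%. There both Arg1 and Csrp3 passed the filter through the ligated pools alone. The 6 genes were chosen with earlier results of these data known, and Jun and Gadd45a supplied 4 probe sets each. The counts of probe sets called or without overlap, here and in the sciatic nerve below, are therefore descriptions. These are bulk samples, in which fewer cells of a type and less RNA per cell cannot be told apart.

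Atf3 had a normalized signal of 485 in the SNL pool and 516 in the SNL+GPN pool of ipsilateral L5 DRG, against 65.5 in Naive, 46.8 in Naive+GPN and 102 in Sham. Both ligated pools lay far above the unligated ones, of which Sham was the highest. The log2 change was 2.78 (SE 0.27, limma adjusted p = 0.00172), the 23rd largest rise of the 16746 probe sets. In L6 DRG Atf3 reached 554 in SNL and 631 in SNL+GPN, against 47.2 in Naive, 38.7 in Naive+GPN and 52.7 in Sham. Here Sham stood close to Naive. The log2 change of 3.53 (SE 0.18, limma adjusted p = 0.000178) was the 9th largest rise of 16901. This call held under each of the 15 alternative settings tried.

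Jun, the partner of ATF3 in many of its DNA-binding pairs, had 643 in SNL and 655 in SNL+GPN of L5 DRG, against 181 in Naive, 179 in Naive+GPN and 258 in Sham. The groups did not overlap, and the log2 change was 1.65 (SE 0.17, limma adjusted p = 0.00215). In L6 DRG Jun had 426 in SNL and 427 in SNL+GPN, against 130 in Naive, 85.7 in Naive+GPN and 218 in Sham. The unligated pools were widely spread there, with Sham highest and Naive+GPN lowest. The log2 change was 1.62 (SE 0.33, limma adjusted p = 0.025), and it passed the threshold neither without the SNL pool (adjusted p = 0.158), without the SNL+GPN pool (0.12) or without the Naive pool (0.0797), nor with no filter on low signals (0.0584), with muscle markers as a covariate (0.0596) or on the deposited values (log2 change 1.17, adjusted p = 0.991). With a pool left out the log2 change stayed between 1.31 and 1.95.

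The other Jun probe sets gave log2 changes of 1.86, 0.86 and 1.61 in L5 DRG, all called. In L6 DRG they gave 2.41, 1.41 and 1.70, of which the last, probe set 4, was not called (SE 0.76, limma adjusted p = 0.219). Its signal in that tissue was 133 in SNL and 101 in SNL+GPN, against 34.1 in Naive, 6.20 in Naive+GPN and 102 in Sham. The Sham pool lay inside the range of the ligated pools, and Naive+GPN was near the lowest signals of the array.

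Gadd45a had 508 in SNL and 542 in SNL+GPN of L5 DRG, against 153 in Naive, 139 in Naive+GPN and 184 in Sham. The groups were apart, with a log2 change of 1.70 (SE 0.14, limma adjusted p = 0.00118). In L6 DRG it had 645 in SNL and 476 in SNL+GPN, against 107 in Naive, 67.5 in Naive+GPN and 139 in Sham. The log2 change there was 2.39 (SE 0.29, limma adjusted p = 0.00392), and on the deposited values it was 1.98 and not called (adjusted p = 0.315). Its 3 other probe sets rose by 1.78 to 2.13 in L5 DRG and by 1.93 to 2.73 in L6 DRG on the log2 scale, and every one was called. The 4 Gadd45a probe sets thus lay between 1.70 and 2.13 in L5 DRG, a narrower band than the 0.86 to 1.86 of the 4 Jun probe sets.

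**Figure D2:**
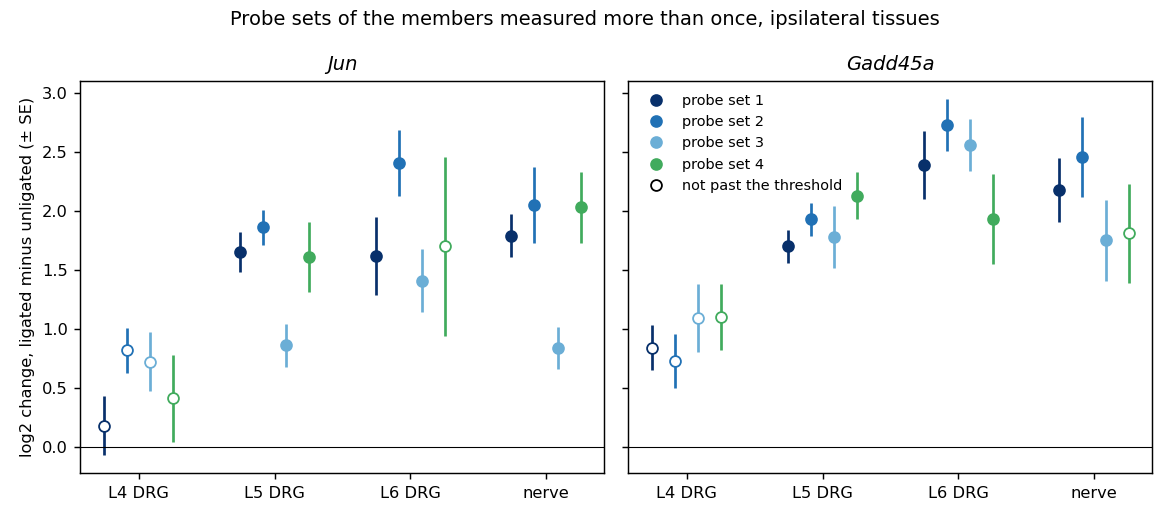
Log2 change, ligated minus unligated pools, of each Jun and Gadd45a probe set in ipsilateral tissues, with SE bars. Filled points passed the adjusted p threshold. All 8 are filled in L5 DRG, probe set 4 of Jun is open in L6 DRG, probe set 4 of Gadd45a is open in sciatic nerve, and all are open in L4 DRG.

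Gadd45a was the only one of the 6 genes with a promoter window in the RefSeq table used (build GRCr8). The 250 bases before its transcription start are shown because Gadd45a moved with Atf3 and Jun, whose proteins bind the palindromes TGACGTCA (the CRE) and TGANTCA (the AP-1 site). They span chr4:97486800-97487049 on the minus strand, written 5′ to 3′ with a CCAAT box in capitals.
Gadd45a: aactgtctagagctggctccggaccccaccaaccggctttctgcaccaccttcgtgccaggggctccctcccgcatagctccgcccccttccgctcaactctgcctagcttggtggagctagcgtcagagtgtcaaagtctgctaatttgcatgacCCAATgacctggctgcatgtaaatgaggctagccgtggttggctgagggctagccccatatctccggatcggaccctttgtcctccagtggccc
Both strands were searched, and neither the CRE nor the AP-1 letters occurred in this window, which says nothing of sites elsewhere in the gene. Among 33469 promoter windows of this length, 1.59% held the CRE letters and 6.34% held the AP-1 letters. CCAAT occurred once, at bases -94 to -90 from the start, and 34% of all windows held it.

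Csrp3 had 142 in SNL and 200.3 in SNL+GPN of L5 DRG, against 24.2 in Naive, 26.3 in Naive+GPN and 39.1 in Sham. The ligated pools differed from each other more than for Atf3 or Jun, but both lay far above Sham. The log2 change was 2.31 (SE 0.23, limma adjusted p = 0.00176). In L6 DRG it had 207 in SNL and 201 in SNL+GPN, against 14.4 in Naive, 10.5 in Naive+GPN and 15.7 in Sham, a log2 change of 3.45 (SE 0.20, limma adjusted p = 0.000204). Its 3 unligated pools were all under the filter there, so its size rests on a low baseline. With either ligated pool left out, Csrp3 no longer passed the filter in L6 DRG and could not be tested.

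Since Csrp3 is also a muscle gene, its signal was set beside the skeletal muscle markers, of which 28 of 29 were measured and none was at 0. Their sum in L5 DRG was 111 in SNL and 318 in SNL+GPN, against 201 in Naive, 58.8 in Naive+GPN and 30.4 in Sham. In L6 DRG it was 44.9 in SNL and 33.1 in SNL+GPN, against 263 in Naive, 29.6 in Naive+GPN and 28.2 in Sham. In L5 DRG the pool with the most muscle signal, SNL+GPN, also had the most Csrp3, and in L6 DRG the pool with the most muscle signal was Naive, in which Csrp3 was 14.4. With the muscle markers as a covariate Csrp3 was called in both ganglia. Its log2 change over the alternatives in which it was tested was 1.97 to 2.55 in L5 and 2.80 to 3.84 in L6. With so few pools the covariate fit cannot separate muscle from ligation, and the part of muscle in the Csrp3 change was not tested.

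Arg1 had 46.5 in SNL and 56.3 in SNL+GPN of L5 DRG, against 4.95 in Naive, 5.30 in Naive+GPN and 3.92 in Sham. All 3 unligated values were below 5.8, the constant added before taking logs, so they have no order and the log2 change of 2.44 (SE 0.25, limma adjusted p = 0.00217) understates the ratio of signals. In L6 DRG it had 66.9 in SNL and 53.5 in SNL+GPN, against 9.82 in Naive, 17.1 in Naive+GPN and 17.9 in Sham. The groups were again apart, with a log2 change of 1.69 (SE 0.26, limma adjusted p = 0.0085). With no filter on low signals Arg1 was still called in L5 (adjusted p = 0.00395) and L6 (0.0262), but on the deposited values it was not called in L6 (log2 change 1.18, adjusted p = 0.991).

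Gap43, already strong without injury, had 1207 in SNL and 1374 in SNL+GPN of L5 DRG, against 499 in Naive, 502 in Naive+GPN and 697 in Sham. It had the smallest change of the 6 genes, a log2 change of 1.20 (SE 0.17, limma adjusted p = 0.00536). In L6 DRG it had 1322 in SNL and 1432 in SNL+GPN, against 621 in Naive, 507 in Naive+GPN and 732 in Sham, a log2 change of 1.16 (SE 0.18, limma adjusted p = 0.01). The L6 call was lost without the SNL pool (adjusted p = 0.0682) and without the SNL+GPN pool (0.0661), and on the deposited values (log2 change 0.88, adjusted p = 0.991). The normalized groups were apart in both ganglia.

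**Figure D3:**
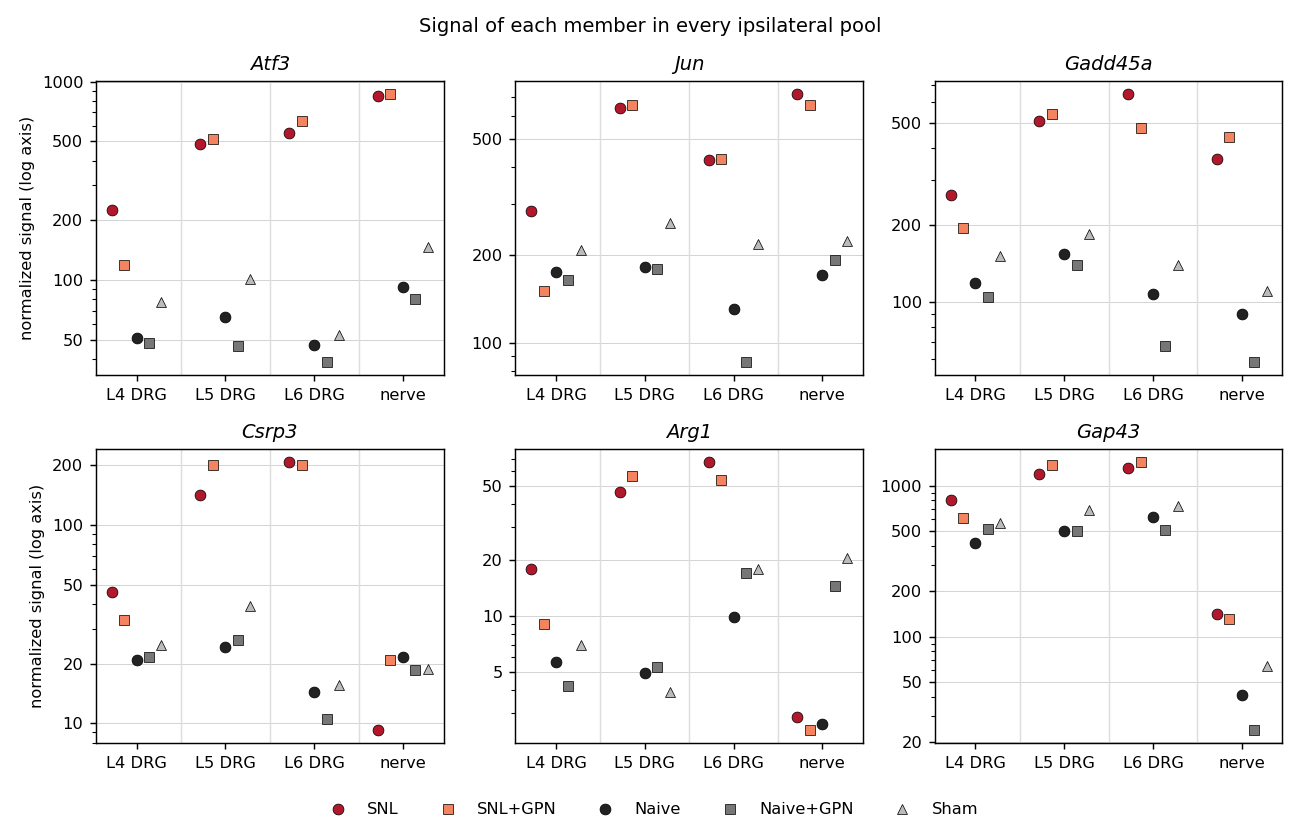
Normalized signal (log axis) of each gene in every ipsilateral pool, with SNL and SNL+GPN pools in red and orange left of the Naive, Naive+GPN and Sham pools in grey. In L5 and L6 DRG both ligated pools lie above all unligated pools for all 6 genes, and in sciatic nerve they do so for 4 genes but not for Csrp3 and Arg1.

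Markers of other cells moved in the same ganglia. Of 18 macrophage markers measured, 14 were tested in L5 DRG and 12 rose, with a summed level of 152 to 164 array medians in ligated pools against 38 to 62.1 in unligated pools. In L6 DRG 12 of 15 rose, with sums of 188 to 271 against 36.4 to 54.4. Of 14 neuron markers, 10 fell in L5 DRG and 10 fell in L6 DRG. Their sums were 493 to 511 against 912 to 991 in L5, and 487 to 511 against 778 to 1060 in L6. Of 9 fibroblast and vessel markers tested, 5 rose in L5 DRG and 3 in L6 DRG, with sums of 249 to 358 against 168 to 222 in L5 and 284 to 385 against 157 to 210 in L6. Of 10 Schwann cell and satellite glia markers, 3 fell in L5 DRG and 2 in L6 DRG, with sums of 379 to 443 against 473 to 599 in L5 and 400 to 480 against 345 to 431 in L6. None of these markers was at 0 in any of the pools. Macrophages are known to express Arg1 and Jun. The part of these cells in the changes of the 6 genes was not tested.

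In ipsilateral L4 DRG, whose nerve was not tied, none of the 5 genes tested passed the threshold, and 0.00597% of 16762 probe sets were called higher. At an unadjusted p below 0.05 the share was 14.3% in either direction. The groups did not overlap for Atf3, Gadd45a, Csrp3 and Gap43, nor for Arg1, which was not tested because 0 pools passed its filter. Over all probe sets tested, 15.4% had both ligated pools above all unligated pools. Atf3 had 227 in SNL and 120 in SNL+GPN, against 51.0 in Naive, 48.3 in Naive+GPN and 77.7 in Sham. Its log2 change of 1.43 (SE 0.29, limma adjusted p = 0.0998) was the 34th largest rise. It was past the threshold on the deposited values (adjusted p = 0.00758) and with 1 spread shared by all tissues (0.0118). Without the SNL pool the log2 change was 0.98 (adjusted p = 0.191), and without the SNL+GPN pool it was 1.87 (0.0524).

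The SNL pool of L4 DRG was the highest of the 5 pools for each of the 6 genes. Relative to the mean of the unligated pools, its log2 values were 1.87 for Atf3, 0.62 for Jun, 1.05 for Gadd45a, 0.88 for Csrp3, 1.06 for Arg1 and 0.68 for Gap43. In the SNL+GPN pool the same values were 0.98, -0.26, 0.63, 0.47, 0.38 and 0.30. Jun had 284 in SNL and 151 in SNL+GPN, against 175 in Naive, 164 in Naive+GPN and 208 in Sham. Its SNL+GPN pool was thus the lowest of all, and its log2 change was 0.18 (SE 0.25, limma adjusted p = 0.799). Jun probe set 2 gave 0.82 (SE 0.19, adjusted p = 0.134) in the same pools, with no overlap. The SNL pool was also the one with the high muscle signal, 208 against 28.1 in SNL+GPN. With muscle markers as a covariate the Atf3 log2 change was 1.13 (adjusted p = 0.251).

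Gadd45a had 261 in SNL and 194 in SNL+GPN of L4 DRG, against 118 in Naive, 105 in Naive+GPN and 151 in Sham, a log2 change of 0.84 (SE 0.19, limma adjusted p = 0.125). Csrp3 had 46.1 in SNL and 33.3 in SNL+GPN, against 20.9 in Naive, 21.7 in Naive+GPN and 24.7 in Sham, and its adjusted p was 0.215. Gap43 had 806 in SNL and 616 in SNL+GPN, against 421 in Naive, 521 in Naive+GPN and 572 in Sham, and its adjusted p was 0.257. Arg1 had 17.9 in SNL and 9.02 in SNL+GPN, against 5.66 in Naive, 4.22 in Naive+GPN and 6.98 in Sham. For each of these genes the SNL+GPN pool lay between the SNL pool and the Sham pool.

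Whether the changes in the tied and untied ganglia differed was tested directly, on the difference of log2 values between tissues of the same treatment. The change in L5 minus that in L4 was 1.35 for Atf3 (SE 0.38, limma adjusted p = 0.135), 1.47 for Jun (SE 0.35, adjusted p = 0.117), 0.86 for Gadd45a, 1.64 for Csrp3 and 0.71 for Gap43. None passed, and neither did any of the 16071 probe sets tested, although 21.2% had an unadjusted p below 0.05. For L6 minus L4, Csrp3 passed, with a difference of 2.77 (SE 0.35, limma adjusted p = 0.0459). It was 1 of 4 probe sets called higher, 0.0249% of 16095. That call was lost on the deposited values (adjusted p = 0.732), with all arrays of a set normalized together (0.0691), with a constant of 1 (0.0635) and with no filter (0.143), and it is a description, since Csrp3 passed the filter in L6 DRG through the ligated pools alone. Atf3 differed by 2.10 (SE 0.43, adjusted p = 0.101) and Gadd45a by 1.56 (SE 0.30, adjusted p = 0.0951), neither past the threshold. Between L6 and L5 none of the 6 genes passed, and the differences ran from -0.75 for Arg1 to 1.14 for Csrp3.

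In the ipsilateral sciatic nerve, beyond the ligation, 4 of the 6 genes rose and Csrp3 and Arg1 did not. Of the 16925 probe sets tested there, 2.25% were called higher, and 9 of the 12 probe sets of the 6 genes were. In 10 of the 12 both ligated pools lay above all unligated pools, against 19.4% of all probe sets. Atf3 had 848 in SNL and 862 in SNL+GPN, against 92.7 in Naive, 80.0 in Naive+GPN and 146 in Sham. The log2 change was 2.98 (SE 0.26, limma adjusted p = 0.00251), the 9th largest rise. Jun had 713 in SNL and 658 in SNL+GPN, against 171 in Naive, 192 in Naive+GPN and 223 in Sham, a log2 change of 1.79 (SE 0.18, limma adjusted p = 0.00394). Gadd45a had 361 in SNL and 438 in SNL+GPN, against 89.7 in Naive, 58.3 in Naive+GPN and 110 in Sham. Its log2 change was 2.18 (SE 0.27, limma adjusted p = 0.00696), and probe set 4 gave 1.81 (adjusted p = 0.0595), the only one of its 4 not called.

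Gap43 had 141 in SNL and 131 in SNL+GPN of sciatic nerve, against 41.3 in Naive, 24.1 in Naive+GPN and 64.0 in Sham, a log2 change of 1.62 (SE 0.33, limma adjusted p = 0.0384). That call was lost in 8 of 15 alternatives, with adjusted p values of up to 0.362. Schwann cells, which make up most of a nerve's cells, are known to express Gap43 after they lose contact with axons. Csrp3 had 9.26 in SNL and 20.8 in SNL+GPN, against 21.7 in Naive, 18.7 in Naive+GPN and 18.9 in Sham, and the groups overlapped (log2 change -0.35, limma adjusted p = 0.567). Arg1 had 2.86 in SNL and 2.44 in SNL+GPN, against 2.62 in Naive, 14.5 in Naive+GPN and 20.4 in Sham, also overlapping, and the lowest 3 were below the constant of 5.8.

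Leaving out a pool moved the nerve calls more than the sizes: the log2 change stayed between 2.81 and 3.23 for Atf3, 1.70 and 1.89 for Jun, 1.94 and 2.37 for Gadd45a and 1.31 and 1.92 for Gap43. Without the SNL pool none of the 6 genes was called, with adjusted p values of 0.0649 for Atf3, 0.079 for Jun, 0.079 for Gadd45a and 0.284 for Gap43. Without the SNL+GPN pool, Atf3 and Jun were called, while Gadd45a (0.0648) and Gap43 (0.186) were not. Without the Naive pool, whose GAPDH ratio was 7.38, Atf3 (0.0194), Jun (0.021) and Gadd45a (0.035) were called and Gap43 (0.112) was not. With the skeletal muscle markers as a covariate none was called either, with a log2 change of 2.90 for Atf3 (adjusted p = 0.0801) and 1.63 for Jun (0.103). The muscle sum was lower in both ligated pools of the nerve than in all unligated ones. Of 9 Schwann cell and satellite glia markers tested, 2 rose and 2 fell in the nerve, with a median log2 change of -0.28 and a summed level of 611 to 629 array medians in ligated against 947 to 1090 in unligated pools. The neurotrophin receptor Ngfr (3.66) and Erbb3 (1.71) rose, and the myelin gene Prx (-1.70) and Aldoc (-2.05) fell. None of these markers was at 0 in any pool, and their part in the changes of the 6 genes was not tested. Of 16 macrophage markers tested, 1 rose.

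The change in the ganglion minus that in the nerve was tested after both had been seen. It was 2.66 for Csrp3 (SE 0.30, limma adjusted p = 0.0126) and 3.40 for Arg1 (SE 0.48, adjusted p = 0.021) in L5 DRG, and 3.80 for Csrp3 (SE 0.35, adjusted p = 0.0116) and 2.65 for Arg1 (SE 0.38, adjusted p = 0.0313) in L6 DRG. Arg1 in both ganglia and Csrp3 in L6 had passed the filter only through the ligated pools, so these values describe them and are no support for a difference. In the L5 comparison 0.96% of 15514 probe sets were called higher, and in the L6 comparison 0.892% of 15580 were. For Arg1 the unligated nerve pools were spread from 2.62 to 20.4, with Naive and both ligated pools below the constant. Its call was lost with a constant of 1 (adjusted p = 0.0537 in L5, 0.0634 in L6), with no filter (0.0578 in L5, 0.0626 in L6) and, in L6, on the deposited values (0.527). Atf3, Jun, Gadd45a and Gap43 did not pass, with differences from -0.48 for Gadd45a to -0.14 for Jun in L5 DRG and from -0.46 for Gap43 to 0.55 for Atf3 in L6 DRG.

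No tested gene of the 6 was called in spinal cord, brain or the contralateral DRG, in limma with Benjamini-Hochberg adjustment. All 6 were tested in spinal cord of both sides, and 5 in brain and each contralateral DRG, where Arg1 did not pass the filter. In ipsilateral spinal cord 0 of 16759 probe sets were called at all, and 2.71% had an unadjusted p below 0.05. Jun had 127 in SNL and 123 in SNL+GPN there, against 67.0 in Naive, 86.1 in Naive+GPN and 109 in Sham, the largest change of the 6 genes in ipsilateral cord (log2 0.52, SE 0.21, limma adjusted p = 1). In contralateral cord the largest among the probe sets standing for the genes were 0.62 for Csrp3 and -0.58 for Arg1 (adjusted p = 0.946 for both). In brain the log2 changes of the probe sets standing for the genes lay between -0.16 and -0.06. The other probe sets spread more widely, with -0.80 for Jun probe set 3, 0.98 for Jun probe set 4 and -0.57 for Gadd45a probe set 2. In that tissue 0 of 16690 probe sets were called, with 2.59% at an unadjusted p below 0.05. On the contralateral side the share called higher was 0% in L4 DRG and spinal cord, 0.00612% in L5 DRG and 0.0608% in L6 DRG. The shares at an unadjusted p below 0.05 were 4.01% in L4 DRG, 8.43% in L5 DRG, 10.6% in L6 DRG and 5.03% in spinal cord.

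In contralateral L5 DRG, where only a ligated pool had the drug, Atf3 had 62.0 in SNL and 63.7 in SNL+GPN, against 67.4 in Naive and 67.6 in Sham. In contralateral L6 DRG it had 39.4 in SNL and 49.8 in SNL+GPN, against 54.3 in Naive+GPN and 43.6 in Sham. Signals were normalized separately for each tissue and side, so these values cannot be set beside those of the ipsilateral ganglia. The test of ipsilateral minus contralateral change had 2 against 2 pools in L5 and L6 and 2 against 3 in L4, and Arg1 was not tested. It called none of the other 5 genes in L5 (Atf3 2.63, SE 0.49, limma adjusted p = 0.2) or L4, and none in L6, where Csrp3 differed by 4.06 (SE 0.46, adjusted p = 0.0568). None of 15529 probe sets passed that test in L5, and 0.00642% of 15579 were called higher in L6. The contralateral sciatic nerve had 1 ligated pool, SNL+GPN, in which Atf3 was 127, against 114 in Naive, 110 in Naive+GPN and 164 in Sham, and it was not tested.

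**Figure D4:**
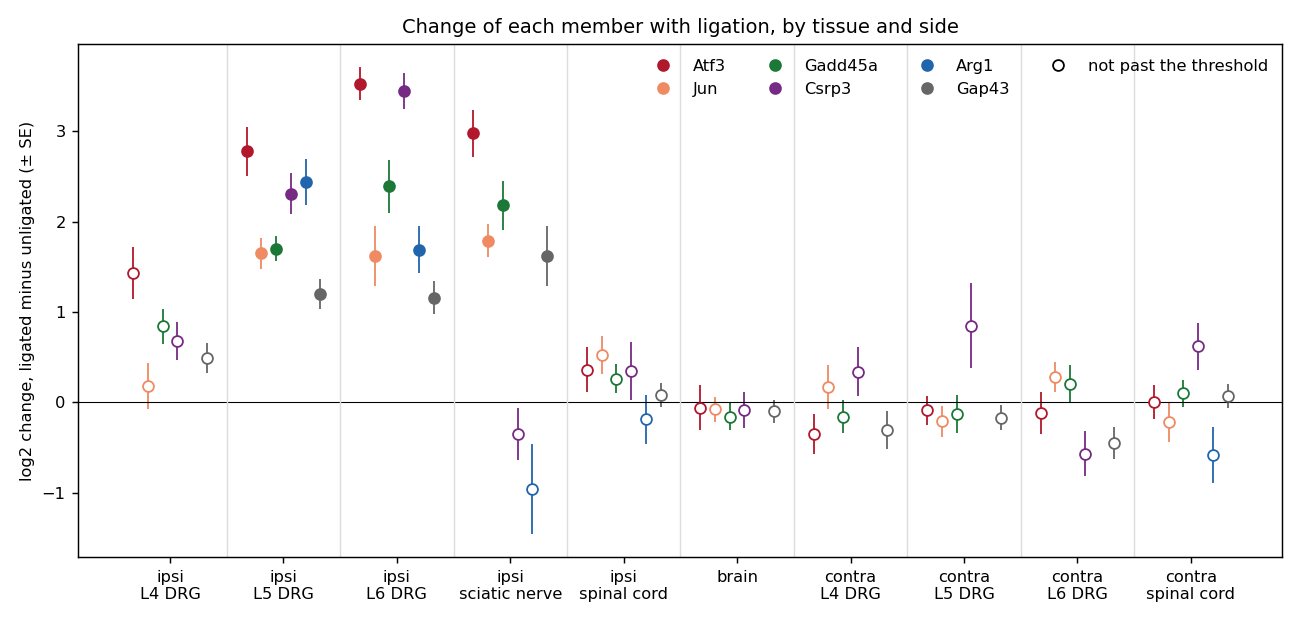
Log2 change of each gene, ligated minus unligated pools, with SE bars, in 10 tissue and side combinations. Filled points passed the adjusted p threshold and open points did not, and Arg1 is absent where it was not tested. Filled points lie in ipsilateral L5 DRG, L6 DRG and sciatic nerve, between 1.16 and 3.53.

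Sham surgery without ligation was set beside the naive rats as 1 pool against 1, with no test. In ipsilateral L5 DRG the log2 difference, Sham minus Naive, was 0.59 for Atf3, 0.58 for Csrp3, 0.49 for Jun, 0.48 for Gap43, 0.25 for Gadd45a and -0.15 for Arg1, beside a median absolute difference of 0.20 over all probe sets tested. In ipsilateral L4 DRG it was 0.56 for Atf3 and 0.44 for Gap43, and in sciatic nerve 0.63 for Atf3 and 0.57 for Gap43. In L6 DRG it was 0.14 for Atf3 and 0.72 for Jun. Sham thus exceeded Naive for Atf3 at all of these sites, and by less than the ligated pools did. The median absolute difference over all probe sets tested was 0.22 in L4 DRG, 0.31 in sciatic nerve and 0.27 in L6 DRG. The 0.14 of Atf3 in L6 DRG lay below it. In ipsilateral spinal cord Sham minus Naive was -0.41 for Atf3.

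Gabapentin was tested as the pools with the drug against those without, with ligation as a covariate. None of the genes tested passed in the 3 ipsilateral DRG levels, sciatic nerve, spinal cord or brain (lowest limma adjusted p = 0.99), and Arg1 was not tested in L4 DRG or brain. No probe set passed in any of these tissues, and the shares with an unadjusted p below 0.05 were 3.77% in L5 DRG, 3.27% in L6 DRG, 2.76% in L4 DRG and in sciatic nerve, 3.12% in spinal cord and 3.82% in brain. In L5 DRG the drug's log2 change ran from -0.38 for Atf3 to 0.17 for Arg1. Among the probe sets standing for the genes, the lowest unadjusted limma p was 0.0161, for Gadd45a in L6 DRG (log2 change -0.65). In L4 DRG it was 0.0352 for Jun (log2 change -0.50) and 0.0362 for Atf3 (-0.58). Jun probe set 4 had 0.0287 in L6 DRG (log2 change -1.57). Over 7 alternatives the Gadd45a value in L6 DRG ran from -0.78 to 0.17, so its direction was not fixed. Gadd45a probe sets 2, 3 and 4 gave -0.35, -0.3 and 0.62 in L6 DRG. In L4 DRG the SNL+GPN pool lay below the SNL pool by 0.89 for both Atf3 and Jun on the log2 scale.

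Genes of the same pathways were taken from 8 lists, chosen with earlier results of these data known and holding none of the 6 genes. In L5 DRG, of 8591 genes tested, 6.79% rose and 9.46% fell, with a median log2 change of -0.01. In L6 DRG 4.76% rose and 4.62% fell, with a median of 0.01. Among the relatives of Atf3 and Jun, 3 of 15 tested rose in L5 DRG and none fell, with a median of 0.17. They were Atf1 (log2 change 1.00), Crem (0.77) and Fos (0.70). In L6 DRG 2 of 14 rose and 1 fell, and Fosl2, a Fos relative, had a log2 change of -1.72 (SE 0.34, limma adjusted p = 0.0225), with means of 4.81 in ligated and 29.5 in unligated pools. The ligated value was below the constant of 5.8.

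Of other transcription factors known from injury, 8 of 25 rose in L5 DRG and 7 of 25 rose in L6 DRG, and none fell. Their medians were 0.40 and 0.58. Egr1, an immediate early factor, averaged 566 in ligated and 241 in unligated pools of L5 DRG (log2 change 1.20). Sox4 and Sox11, SOX factors of developing neurons, changed by 1.17 and 1.08 there, and Smad3, a factor of TGF-beta signalling, by 0.92. In L6 DRG Myc changed by 1.18 and Smad1, a factor of BMP signalling, by 1.06.

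JNK, the kinase that phosphorylates JUN, is held in place along the axon by scaffold proteins. Of 16 genes of JNK and MAP kinase signalling tested in L5 DRG, 2 rose and 5 fell, with a median of -0.19. The scaffold genes Mapk8ip2 (log2 change -1.46, SE 0.11, limma adjusted p = 0.00103), Mapk8ip1 (-1.12) and Mapk8ip3 (-0.80) were among those that fell, as was Map2k4, a kinase that activates JNK (-0.85). Dusp6, a phosphatase of ERK, rose by 1.06. In L6 DRG 1 rose, Dusp6, and 1 fell, Mapk8ip2 (-1.11).

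Of 15 relatives of Gadd45a in growth arrest, 3 rose in L5 DRG and 4 in L6 DRG, and none fell. They were Btg1, an antiproliferative gene (1.20), the cell cycle inhibitor Cdkn1a (0.77) and cyclin D1, Ccnd1 (0.75), in L5 DRG. Pcna, a DNA replication clamp (1.20), and Ccnd2, another D cyclin (1.06), were among those that rose in L6 DRG. The list's name does not describe the last 3, which serve cell division.

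Of 17 relatives and partners of Csrp3 tested in L5 DRG, 7 rose and 1 fell, with a median of 0.78. In L6 DRG, of 16 tested, 2 rose and 1 fell, with a median of 0.42. Csrp2, its closest named relative, averaged 131 in ligated and 42.5 in unligated pools of L5 DRG (log2 change 1.51, SE 0.17, limma adjusted p = 0.00285) and changed by 1.73 in L6 DRG. Ankrd1 (1.42), Fhl1 (0.95) and the actin crosslinker Actn1 (0.86) also rose in L5 DRG. The skeletal muscle markers had a median log2 change of 1.08 in L5 DRG and -0.37 in L6 DRG, with 0 called in either and sums that overlapped between groups, and their part in the changes of this list was not tested. Pdlim1 (1.16) rose and Crip2 (-0.96) fell in L6 DRG.

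Around Arg1, 1 of 20 genes of arginine and polyamine metabolism rose in L5 DRG and 3 fell, with a median of -0.07. In L6 DRG 1 of 20 rose and 2 fell. Ass1, which makes argininosuccinate on the way to arginine, averaged 4.91 in ligated and 38.8 in unligated pools of L5 DRG (log2 change -2.01, SE 0.31, limma adjusted p = 0.00738), and its ligated level was below the constant of 5.8. Arg2, the mitochondrial arginase, fell (-0.76, adjusted p = 0.0489), opposite to Arg1, and fell in L6 DRG too (-0.92). Sat1, which acetylates polyamines, rose by 0.59 in L5 DRG on the log2 scale.

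Around Gap43, 6 of 29 growth cone and cytoskeleton genes rose in L5 DRG and 2 fell, with a median of 0.01. In L6 DRG 4 rose and 1 fell. Marcks, like GAP43 a membrane protein phosphorylated by protein kinase C, rose by 1.18, and the stathmin Stmn4 by 1.15 in L5 DRG. The tubulins Tuba1a (0.75 in L5 DRG) and Tubb2b (0.68 in L5 and 0.62 in L6 DRG) and the membrane linker Ezr (0.70 in L6 DRG) rose too. Dpysl4, a collapsin response mediator, went the other way and averaged 15.4 in ligated and 228 in unligated pools of L5 DRG (log2 change -3.47, SE 0.18, limma adjusted p = 0.000349). It also fell in L6 DRG (-3.21).

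Of 35 other regeneration-associated genes tested in L5 DRG, 20 rose and 1 fell, with a median of 0.55. In L6 DRG 16 of 36 rose and none fell, with a median of 0.74. The neuropeptide genes Vip (log2 change 4.37), Npy (4.33) and Gal (3.52) led in L5 DRG, each above the 2.78 of Atf3, and were followed by Reg3b (3.27). In L6 DRG Cacna2d1, which encodes a calcium channel subunit that gabapentin binds, changed by 2.38 and the peptidase gene Ecel1 by 2.09. In L4 DRG 1 gene of the 8 lists rose, Npy, with means of 644 in ligated and 94.0 in unligated pools (log2 change 2.70, SE 0.27, limma adjusted p = 0.0467). The only other call among these lists there was Map2k3, an activating kinase of p38, which averaged 4.62 in ligated and 47.5 in unligated pools.

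**Figure D5:**
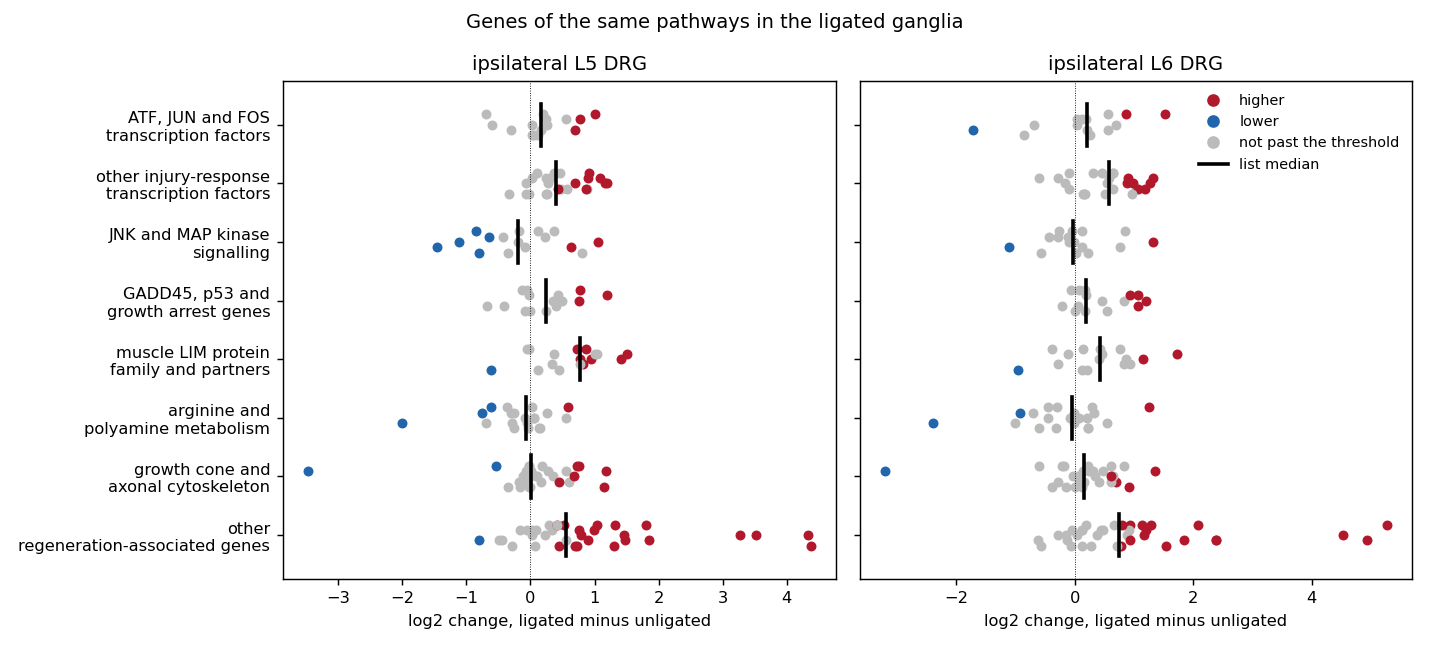
Log2 change, ligated minus unligated pools, of the genes of 8 pathway lists in ipsilateral L5 and L6 DRG (1 point per tested gene, none of the 6 members). Red and blue points passed the adjusted p threshold, grey points did not, and black bars are list medians. The other regeneration-associated genes have the highest median in L6 DRG (0.74), and the growth cone genes lie around 0.01 in L5 DRG.

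Across all 28 DRG pools, normalized together, the 5 genes most like each member were taken from 9132 genes by Pearson correlation of log2 signal. The pools share the ligated and unligated groups, so any gene that follows ligation scores high, and no p is given. Atf3 was most like Vip (0.98), Gal (0.98), Npy (0.97), Gadd45a (0.97) and the macrophage marker Cd74 (0.96). Gadd45a was most like Atf3 (0.97), Gal (0.97), Vip (0.96), Cd74 (0.95) and Lyz2 (0.95), a lysozyme gene of macrophages. Jun was most like Gadd45a, Rhoq, Col5a2, Col18a1 and Lcp1, at 0.90 to 0.92. Csrp3 was most like Ptprh (0.94), Timp1 (0.93), Atf3 (0.92), Arpc1b (0.92) and RT1-Db1 (0.92).

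Arg1 and Gap43 kept other company. Arg1 was most like Stmn4, Vgf, Btg1, Tagln2 and Rasd1, at 0.88 to 0.91, and Gap43 was most like Vgf (0.93), Rhoc, Clic1, Tubb2b and Tspo, at 0.90 to 0.92. Among the 6 genes themselves, the pairs ran from 0.69, for Jun and Arg1, to 0.97, for Atf3 and Gadd45a. Gap43 correlated at 0.87 with Arg1, 0.86 with Atf3, 0.83 with Gadd45a, 0.82 with Csrp3 and 0.71 with Jun.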

How the data were processed

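The deposited values are linear probe set intensity per array, made by the authors with MAS5 per the submitters' processing notes, with a version and scaling not given in the sources used here. Trimmed mean signals (2% at each end) differed up to 4.66-fold among arrays of 1 set, above the limit chosen for rescaling, and quantile normalization was therefore applied by set and tissue. Values were then taken as log2 of signal plus a constant, the 20th percentile of a set (5.8 on array A). Probe sets over the 40th percentile of their array in at least 2 pools of a comparison were kept, without controls. Symbols came from GEO's platform annotation, updated for 18122 of 18178 single-symbol probe sets through a RefSeq table (GRCr8, names only).

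Tests used limma 3.58.1 in R 4.3.3 (lmFit, then eBayes with trend) for every tissue, two-sided, with Benjamini-Hochberg adjustment over all kept probe sets and a threshold of 0.05. An exact permutation test of 2 against 3 pools cannot go below 0.1, or below 0.333 for 2 against 2. Differences between tissues were tested on the same treatment's log2 differences, though the labels do not say if 1 set of rats supplied every tissue. The script was tested on simulated data. Pathway genes named are the 4 largest changes past the threshold per list in L5 DRG and 2 more in L6 DRG, while markers, Map2k3, Mapk8ip3 and Npy in L4 DRG were added. The members, lists and rules were chosen with earlier results of these data known. Alternatives covered scaling, constant, filter, trend, covariates, a shared spread and each pool left out.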

Additional observations from a re-analysis of the deposited data

Results flagged for a closer look

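Csrp3 and Arg1 stood out because their ligation changes differed between tissues by a test of the difference itself (limma, Benjamini-Hochberg adjustment over all probe sets kept in both tissues). The Csrp3 change in ipsilateral L6 DRG exceeded that in ipsilateral L4 DRG by 2.77 on the log2 scale (adjusted p = 0.0459), with both ligated differences (2.03 and 2.40) above all 3 unligated ones (-0.40, -0.76 and -0.51). Csrp3 passed the filter in L6 DRG only through the ligated pools, and the call was lost with no filter (adjusted p = 0.143), so the value is a description.

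The comparison with ipsilateral sciatic nerve was chosen after the values of both tissues had been seen, so its p values are no support for a difference. In it, the Csrp3 change was larger by 2.66 in L5 DRG (adjusted p = 0.0126) and by 3.80 in L6 DRG (adjusted p = 0.0116). The Arg1 change was larger by 3.40 in L5 DRG (adjusted p = 0.021) and by 2.65 in L6 DRG (adjusted p = 0.0313). Both ligated differences lay above all unligated ones for each gene. The skeletal muscle sum differed between the nerve groups, 56.5 and 446 in ligated against 575 to 1180 in unligated pools, and its part in these differences was not tested. Arg1 in both ganglia and Csrp3 in L6 DRG passed the filter only through the ligated pools, so these differences are descriptions too.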

How the results depend on the processing

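Counts of the 6 genes called kept within 1.5 times in L5 DRG (5 to 6) under all 15 alternatives, and Arg1 could not be tested there with a ligated pool left out. In L6 DRG 2 were called on the deposited values, and 2 to 6 with a pool left out, Csrp3 and Arg1 being untested without a ligated pool. In L4 DRG 1, Atf3, was called on the deposited values and 1 with a shared spread. In sciatic nerve 0 were called with muscle markers as a covariate, and 0 to 4 with a pool left out. In contralateral L6 DRG 1, Csrp3, was called on the deposited values. For L6 minus L4 the count was 0 on the deposited values, with all arrays normalized together, with a constant of 1 and with no filter. For ipsilateral minus contralateral L6 it was 1 on the deposited values, with a common median and with a constant at the 40th percentile, and 2 with no trend. For L5 DRG minus nerve it was 1 with a constant of 1 and with no filter, and for L6 DRG minus nerve 1 under these and on the deposited values, Arg1 being the gene lost. Where a lone ligated pool remained, it was assumed to vary like the unligated ones. No called change reversed its sign, and the gabapentin counts of these genes were 0 under each alternative run. Over all probe sets, calls ranged from 768 to 3078 in L5 DRG (2617), 86 to 2798 in L6 DRG (1451), 0 to 2345 in sciatic nerve (824) and 0 to 2926 in L4 DRG (7). Without scaling, the median probe set shifted by -0.24 in L5, -0.28 in L6 and 0.49 in L4 DRG and by 0.33 in nerve (log2), and the cause of the lost calls was not tested. No paired analysis was possible within a tissue, because each treatment had 1 pool there and the labels link no ligated pool to an unligated one. Only the differences between tissues were matched, by treatment. Signals under 5.8 have no order.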
